A study of Homo sapiens with 16 samples.

Results

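Chromosome 19 carries the densest set of zinc finger genes in the human genome, and 201 of them were followed here across 6 SW480 lines. SW480 is a long-established human cell line that was grown from a colon tumour. The genes were chosen by their mean level, as protein-coding genes of hg38 chromosome 19 named ZNF and a number, with at most 1 letter after it, whose mean over all 16 samples was at least 0.5 RPM. RPM is the count of a gene after its sample was scaled to a total of 1000000 counted read pairs. Of 246 such genes, 201 reached that level, and the remaining 45 had counts in some samples but lay under it. The rule used the mean level and no difference between lines, and the levels themselves are therefore given as a description. ZNF709 at 0.5 RPM, ZNF556 at 0.501 RPM and ZNF404 at 0.862 RPM lay just inside, and ZNF550 at 0.354 RPM, ZNF585B at 0.326 RPM and ZNF582 at 0.252 RPM just outside. In 5 of the 201 genes (ZNF556, ZNF491, ZNF709, ZNF737 and ZNF404) at least 1 line had a mean under 0.5 RPM, so that their entry rested on the lines where they are higher.

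Zinc finger proteins of this kind bind DNA through rows of fingers, each folded around a zinc ion, and the order of fingers sets the sequence that is bound. Most of them carry a KRAB domain near the start of the protein, which recruits the corepressor TRIM28 and with it enzymes that lay down repressive histone methylation. Many of the genes arose by tandem duplication, often in answer to retrotransposons, and they still lie in clusters of related genes whose own bodies are marked by such methylation. In the translated transcripts of the GENCODE annotation the 201 genes had between 1 and 31 fingers (median 12), with the 31 in ZNF91, and a pattern of residues typical of the KRAB domain was found in 161 of them.

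The lines were Parental, which is SW480 without a construct (n = 2), shScrambled with a non-mammalian control shRNA (n = 2), shAjuba1 with an shRNA against the coding part of AJUBA (n = 3), shAjuba2 with an shRNA against a non-coding part of its transcript (n = 3), Ajuba OE with a tagged Ajuba construct driven by the CMV promoter (n = 3), and Control with the same vector after Ajuba had been cut out (n = 3). All lines except Parental were made with lentivirus and selected with puromycin. The study asked what loss or gain of Ajuba, a LIM protein of cell junctions, does to these cells. Each construct is represented by 1 line, so an effect of the construct and a difference that arose in that line cannot be told apart, and the replicates are technical, so p-values measure only the spread between such samples.

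AJUBA was at 88.8 and 91.6 RPM in Parental and at 83.4 and 81.6 RPM in shScrambled. It was at 49.6, 47.3 and 53.5 RPM in shAjuba1 and at 60.3, 68.6 and 57.1 RPM in shAjuba2. Control had 89.6, 100.5 and 89.4 RPM, and Ajuba OE had 549.7, 461.8 and 566.2 RPM, so the targeted gene followed the labels in every sample. Between 30132396 and 69684675 read pairs were counted in a sample. Keratins of simple epithelium were abundant (KRT8 between 1487.1 and 3164.8 RPM), EPCAM lay between 48.3 and 242.5 RPM, and the intestinal genes CDX2 (7.4 to 26.8 RPM), VIL1 (8.88 to 59.1 RPM) and ASCL2 (6.56 to 47.1 RPM) were expressed, while CDX1 was at most at 0.0837 RPM. Replicate 2 of shAjuba2, Control and Ajuba OE had more mitochondrial messenger RNA (11.3% to 12.7% of counts) than the other replicates of these lines (6.95% to 8.76%). The 8 markers of blood cells, endothelium and fibroblasts summed to 6.81 to 11 RPM in Ajuba OE, 25.6 to 38.2 RPM in shAjuba2 and 16 to 25 RPM in the other lines, most of it from COL1A1 and PDGFRB, while PTPRC reached at most 0.0645 RPM, COL3A1 0.112 RPM and LUM 0.357 RPM. The part of these values in the results was not tested. In bulk RNA, fewer cells that express a gene and less RNA per cell cannot be told apart.

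Neighbouring ZNF genes no more than 500 kb apart were joined into clusters, and 10 clusters held at least 5 of the 201 genes. They are lettered in order along the chromosome, in megabases (Mb) of hg38: A from 2.8 to 2.9 Mb (5 genes), B from 8.5 to 9.8 Mb (11 genes), C from 11.5 to 12.6 Mb (23 genes), D from 19.7 to 24.1 Mb (23 genes), E from 34.7 to 35.0 Mb (5 genes), F from 36.2 to 37.8 Mb (22 genes), G from 43.5 to 44.5 Mb (21 genes), H from 51.6 to 53.6 Mb (31 genes), I from 55.5 to 56.7 Mb (12 genes) and J from 57.2 to 58.5 Mb (36 genes). The other 12 genes lay outside them. Cluster D, beside the centromere on the short arm, is the home of ZNF91 and its many close relatives, and 23 of its 37 ZNF genes reached the threshold. In cluster H 31 of 39 did. The share of genes that differed between lines was highest in these 2 clusters, and the promoters of 3 genes of D and 2 of H are therefore shown first.

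The sequences are the 250 bases before the annotated start, 5′ to 3′ on the strand of the gene, from RefSeq on GRCh38.p14. Capitals mark CCAAT, the core of the CCAAT box, and CCGGAAG, a core that factors of the ETS family bind, on either strand. ZNF737 (chr19:20565782-20566031, minus strand), ZNF681 (chr19:23758892-23759141, minus strand) and ZNF486 (chr19:20166964-20167213, plus strand) are the genes of D that were lowest in shAjuba1. ZNF808 (chr19:52527418-52527667, plus strand) was lower and ZNF331 (chr19:53520764-53521013, plus strand) higher there, and both are in H.
ZNF737: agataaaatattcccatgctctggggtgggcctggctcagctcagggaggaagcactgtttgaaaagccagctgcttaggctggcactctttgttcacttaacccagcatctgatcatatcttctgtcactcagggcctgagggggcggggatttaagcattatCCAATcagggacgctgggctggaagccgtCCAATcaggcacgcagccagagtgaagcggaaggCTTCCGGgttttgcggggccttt
ZNF681: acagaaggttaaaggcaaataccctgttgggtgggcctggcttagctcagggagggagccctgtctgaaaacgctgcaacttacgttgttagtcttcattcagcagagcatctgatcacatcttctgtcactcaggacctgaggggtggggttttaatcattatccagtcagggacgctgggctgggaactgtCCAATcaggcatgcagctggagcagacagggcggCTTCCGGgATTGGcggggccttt
ZNF486: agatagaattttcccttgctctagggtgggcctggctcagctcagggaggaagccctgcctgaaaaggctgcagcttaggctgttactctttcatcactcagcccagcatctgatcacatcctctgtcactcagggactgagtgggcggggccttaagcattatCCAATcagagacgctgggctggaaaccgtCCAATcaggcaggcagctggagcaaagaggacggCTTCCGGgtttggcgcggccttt
ZNF808: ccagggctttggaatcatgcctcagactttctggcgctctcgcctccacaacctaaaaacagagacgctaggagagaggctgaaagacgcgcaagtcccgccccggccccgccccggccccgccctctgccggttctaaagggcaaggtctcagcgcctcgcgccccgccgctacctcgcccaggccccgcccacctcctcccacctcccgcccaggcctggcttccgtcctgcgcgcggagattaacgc
ZNF331: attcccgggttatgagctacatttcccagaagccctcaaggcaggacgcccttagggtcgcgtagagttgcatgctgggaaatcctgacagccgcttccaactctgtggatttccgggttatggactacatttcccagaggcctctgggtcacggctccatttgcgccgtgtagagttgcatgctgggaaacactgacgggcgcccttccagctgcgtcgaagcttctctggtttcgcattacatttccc

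Each of the 3 promoters of D held 1 CCGGAAG and 2 CCAAT in these bases, and those of ZNF808 and ZNF331 held neither. With the 50 bases after the start, ZNF808 held 1 CCGGAAG and ZNF331 held 1 CCAAT. Over the 300-base windows of RefSeq, which include those 50 bases, a promoter was found for 178 of the 201 genes. CCAAT was present in 20 of 20 windows of D and in 28% of those of H, against 53.9% of all 178 and 35.7% of 27305 human promoters. It was as common in cluster A (100%) and nearly so in cluster C (90.9%). CCGGAAG was present in 14 of 20 windows of D (70%), in 56% of H and in 69.7% of J, against 42.7% of the 178 and 10.7% of human promoters. The median number of CG pairs per window was 10 in D, 25 in H and 14 over human promoters. D and H, which moved together below, thus differed in CCAAT and in CG pairs. CCGGAAG was more frequent in both than in the 178. A match is a description of the sequence and not of a bound site.

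Levels differed between the 6 lines for 124 of the 201 genes by edgeR's quasi-likelihood test of all lines together (Benjamini-Hochberg adjusted p under 0.05), which is 61.7%, where 45.7% of all genes tested were called. A gene is called below where this adjusted p, computed over all genes of a comparison, was under 0.05. Among ZNF genes of other chromosomes at the same level 108 of 227 (47.6%) were called. At that level 54.4% of all protein-coding genes were called, and 52.5% of the other protein-coding genes of chromosome 19. The share was 21 of 23 in D and 28 of 31 in H, 17 of 23 in C, but 3 of 12 in I and 13 of 36 in J. In some clusters the genes resembled each other more than genes of different clusters did. Pairs were correlated over the 6 line means of log2 CPM, which is RPM with library sizes corrected by edgeR's TMM factors. The median correlation of a pair was 0.49 within clusters and 0.19 between them. It was 0.83 within D, 0.75 within H and 0.76 between a gene of D and a gene of H. C had 0.56, and E, F and G had 0.39, 0.34 and 0.40. In A (0.05), B (0.10), J (0.14) and I (0.19) it was no higher than between clusters. These are descriptions over 6 points that share libraries.

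**Figure D1:**
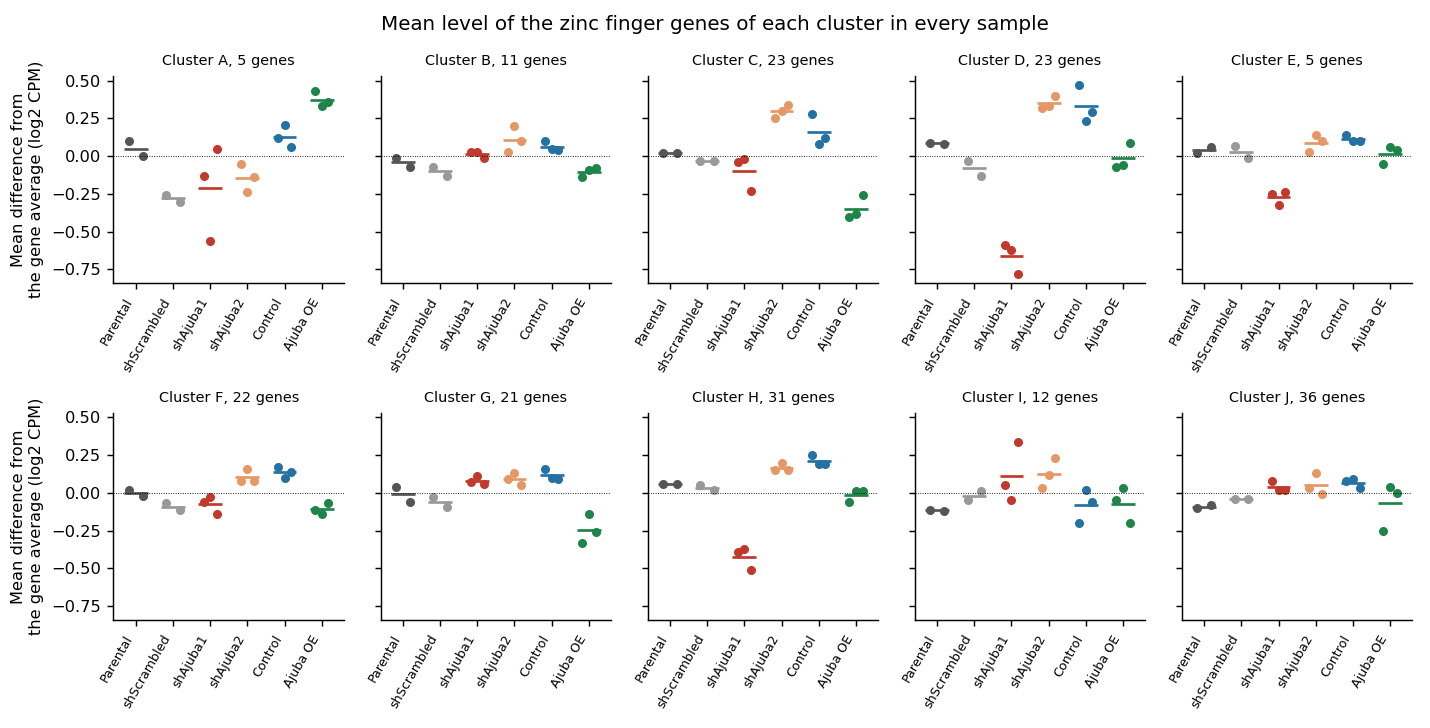
Mean level of the genes of each cluster (A to J, 1 panel each) in every sample, as the mean difference from each gene's average over the samples in log2 CPM. Points are samples and bars are line means. The 3 shAjuba1 samples lie lowest in D (mean -0.67), H (mean -0.43) and E (mean -0.27), and the 3 Ajuba OE samples lie lowest in C (mean -0.35) and G (mean -0.24).

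Clusters D and H were lower in shAjuba1 than in any other line. The small cluster E was too, by less. In mean log2 CPM relative to each gene's average it lay at -0.27 in shAjuba1 and at 0.02 in Ajuba OE, the next line. The RPM of the 23 genes of D summed to 317.5 and 307.8 in Parental, 302.8 and 282.6 in shScrambled, 226.7, 228.5 and 193.5 in shAjuba1, 406.7, 403.5 and 430.4 in shAjuba2, 415.7, 364.5 and 369.6 in Control and 270.5, 260.6 and 297.1 in Ajuba OE. All 3 shAjuba1 samples were below the 13 others, whereas shAjuba2 and Control stood above the remaining lines. The 31 genes of H summed to 711.0 and 682.9 RPM in Parental, 681.1 and 663.5 RPM in shScrambled, 530.6, 554.1 and 499.9 RPM in shAjuba1, 780.5, 825.3 and 766.2 RPM in shAjuba2, 784.8, 803.8 and 765.1 RPM in Control and 599.8, 637.9 and 628.9 RPM in Ajuba OE. In mean log2 CPM relative to each gene's average, shScrambled (-0.08) lay below Ajuba OE (-0.02) in D, and Control (0.21) above shAjuba2 (0.17) in H. By the sums, the order of the lines was the same in H as in D, with shAjuba1 lowest and Ajuba OE next. The sum over all 201 genes did not follow it: shAjuba1 had 3233 ± 58.4 RPM (SD, n = 3), shScrambled 3256 ± 60.9 RPM (SD, n = 2) and Ajuba OE the least with 3038 ± 102 RPM (SD, n = 3).

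Against shScrambled, 82 of the 200 genes that could be tested were called in shAjuba1, 27 higher and 55 lower. Their fold changes had a median of -0.05 on the log2 scale. Over all genes tested 38.4% were called, 18.2% higher and 20.2% lower, so the share called (41%) was near the background. The direction was spread unevenly. In D 16 of 23 genes were lower and none was higher (median log2 fold change -0.54), and in H 24 of 31 were lower and 1 was higher (median -0.50). The other 146 genes tested gave 15 lower and 26 higher. The remaining protein-coding genes of chromosome 19 went the other way, with 272 of 840 higher and 102 lower (median 0.14). Without shScrambled replicate 1 the calls were 41, with 9 lower in D and 11 in H, and without shScrambled replicate 2 they were 45, with 13 lower in D and 17 in H.

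**Figure D2:**
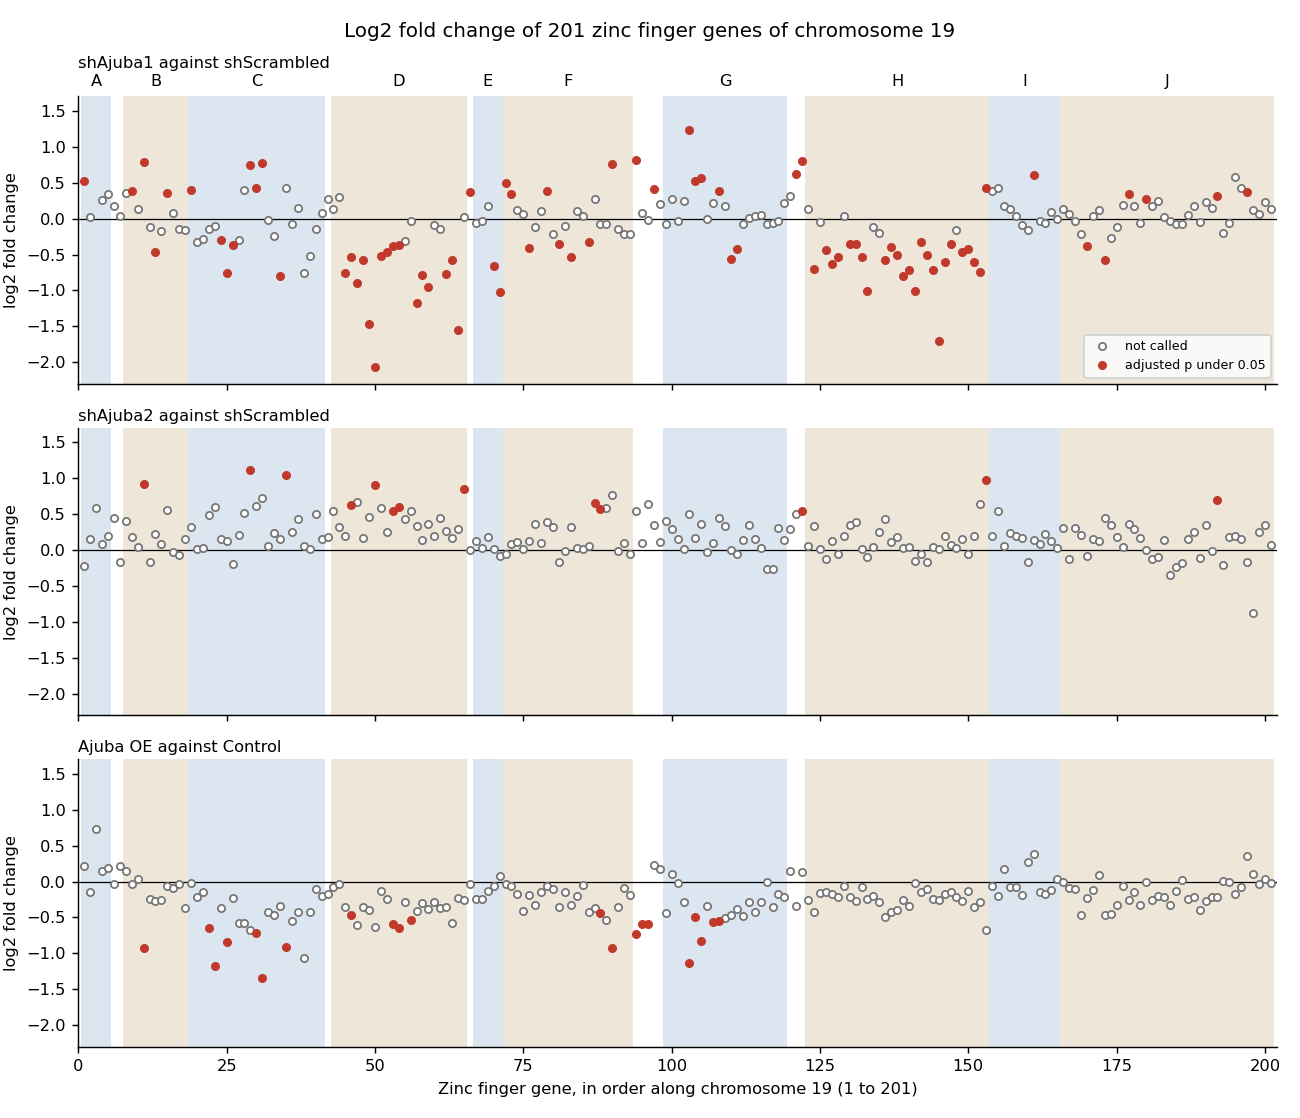
Log2 fold change (y axis, edgeR) of the 201 genes in their order along chromosome 19 (x axis, rank from 1 to 201) for shAjuba1 and shAjuba2 against shScrambled and Ajuba OE against Control. Filled points had an adjusted p under 0.05, and bands with letters mark clusters A to J. In the shAjuba1 panel, which has no point for ZNF556, the filled points of D and H lie below 0 except ZNF331 at 0.42, the 13 filled points of shAjuba2 lie above 0 and the 21 of Ajuba OE below it.

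The change was largest in cluster D. ZNF737 (ENSG00000237440, chr19:20535825-20565809, minus strand, 7 exons, 13 fingers, KRAB pattern) was at 1.42 and 1.6 RPM in Parental, 1.12 and 1.07 RPM in shScrambled, 0.293, 0.232 and 0.248 RPM in shAjuba1, 1.98, 2.14 and 2.26 RPM in shAjuba2, 1.66, 1.55 and 1.46 RPM in Control and 0.847, 1 and 1.06 RPM in Ajuba OE. All shAjuba1 samples were below all others, and shAjuba2 lay above all other lines. The log2 fold change against shScrambled was -2.07 (SE 0.274, adjusted p = 7.95e-05). An unnamed gene on the same strand, ENSG00000269110, overlaps its exons, and its counts are uncertain to that extent.

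ZNF681 (chr19:23739195-23758891, minus strand), with no overlapping exon, had 4.44 and 3.52 RPM in shScrambled and 1.53, 1.29 and 1.21 RPM in shAjuba1, while the samples of the other 4 lines ranged from 3.77 to 7.16 RPM. Its log2 fold change was -1.55 (SE 0.178, adjusted p = 2.37e-05). ZNF486 (chr19:20167214-20200488, plus strand) fell from 10.5 and 8.19 RPM to 3.29, 3.68 and 3.34 RPM, by 1.46 on the log2 scale (SE 0.141, adjusted p = 5.71e-06), and it too overlaps no other gene. Neither gene overlapped between shAjuba1 and any other line. ZNF493 (chr19:21397119-21427577, plus strand) had 11.1 and 11.9 RPM in shScrambled against 5.36, 4.88 and 5.24 RPM in shAjuba1 (log2 fold change -1.17, SE 0.112, adjusted p = 5.18e-06).

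ZNF91 and ZNF93, which in primates silence SVA and LINE-1 retrotransposons, belong to the same cluster. ZNF91 (chr19:23304991-23395471) was at 17.6 and 15.2 RPM in shScrambled and at 10.9, 9.59 and 8.42 RPM in shAjuba1 (log2 fold change -0.77, SE 0.127, adjusted p = 0.000421). ZNF93 was at 2.39 and 2.33 RPM against 1.32, 1.43 and 1.1 RPM (log2 fold change -0.89, SE 0.181, adjusted p = 0.00189). Both genes were lower in the 3 shAjuba1 samples than in any other sample. ZNF675, an inhibitor of signalling through TRAF6, fell by 0.58 on the log2 scale (adjusted p = 0.00462), a call that was lost without shScrambled replicate 1 (adjusted p = 0.0607). ZNF714, the gene of D with the most reads per kilobase (5.73 RPM per kb), fell by 0.38 (adjusted p = 0.0188, or 0.246 without shScrambled replicate 1).

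The 7 genes of D that were not called were ZNF101 (0.13), ZNF14 (0.30), ZNF708 (-0.31), ZNF738 (-0.04), ZNF492 (-0.09), ZNF724 (-0.15) and ZNF254 (0.02), given with their log2 fold changes. ZNF101 and ZNF14 are the outermost pair at the end of the cluster away from the centromere, and ZNF254 is the last at the other end. The called genes ranged from -2.07 to -0.37.

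In cluster H the largest difference was that of ZNF888 (ENSG00000213793, chr19:52904415-52923470, minus strand, 17 fingers, KRAB pattern). It was at 2.19 and 2.48 RPM in Parental, 2.99 and 3.08 RPM in shScrambled, 0.942, 0.83 and 1.02 RPM in shAjuba1, 2.84, 3.96 and 2.65 RPM in shAjuba2, 3.93, 3.47 and 3.28 RPM in Control and 3.06, 2.46 and 3.04 RPM in Ajuba OE. The shAjuba1 samples stood apart below all others, with a log2 fold change of -1.71 against shScrambled (SE 0.174, adjusted p = 8.83e-06). It shares 16.6% of its 50-base windows with other genes and overlaps an antisense gene, so its counts are less certain than those of ZNF681 or ZNF486. ZNF600 (-1.01) and ZNF836 (-1.01) were the other genes of H that fell by at least 1 on the log2 scale, both named here after their values were seen. ZNF808, which silences MER11 elements and is needed for the human pancreas to form, fell by 0.39 (adjusted p = 0.0312), but not past the threshold without shScrambled replicate 1 (adjusted p = 0.289) or replicate 2 (adjusted p = 0.0705).

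The called genes of H ranged from -1.71 to -0.32, and ZNF331 was the exception. This gene (ENSG00000130844, chr19:53519527-53580269, plus strand), imprinted and often silenced in gastrointestinal tumours, lies at the distal edge of the cluster. It was at 80 and 65.2 RPM in Parental, 47.8 and 54.3 RPM in shScrambled, 64.6, 67.1 and 75 RPM in shAjuba1, 95.7, 125.2 and 90.7 RPM in shAjuba2, 68.1, 104.7 and 79.6 RPM in Control and 45.7, 63.3 and 41.7 RPM in Ajuba OE. It was thus higher in both knockdown lines than in shScrambled, with log2 fold changes of 0.42 (adjusted p = 0.0039) and 0.98 (adjusted p = 0.021), which share the shScrambled samples. Without shScrambled replicate 1 these values were 0.35 (adjusted p = 0.0767) and 0.89 (adjusted p = 0.225), and the second call was lost as well without shScrambled replicate 2 or shAjuba2 replicate 1 (adjusted p = 0.159 and 0.0706). The shScrambled line was itself below Parental (log2 fold change -0.51, adjusted p = 0.000166), and the 5 samples of Parental and Control lay between 65.2 and 104.7 RPM, so shAjuba1 was near the lower end of their range. ZNF175, the gene at the other edge of H, was not called (0.14), nor was ZNF649, a transcriptional repressor (-0.05).

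**Figure D3:**
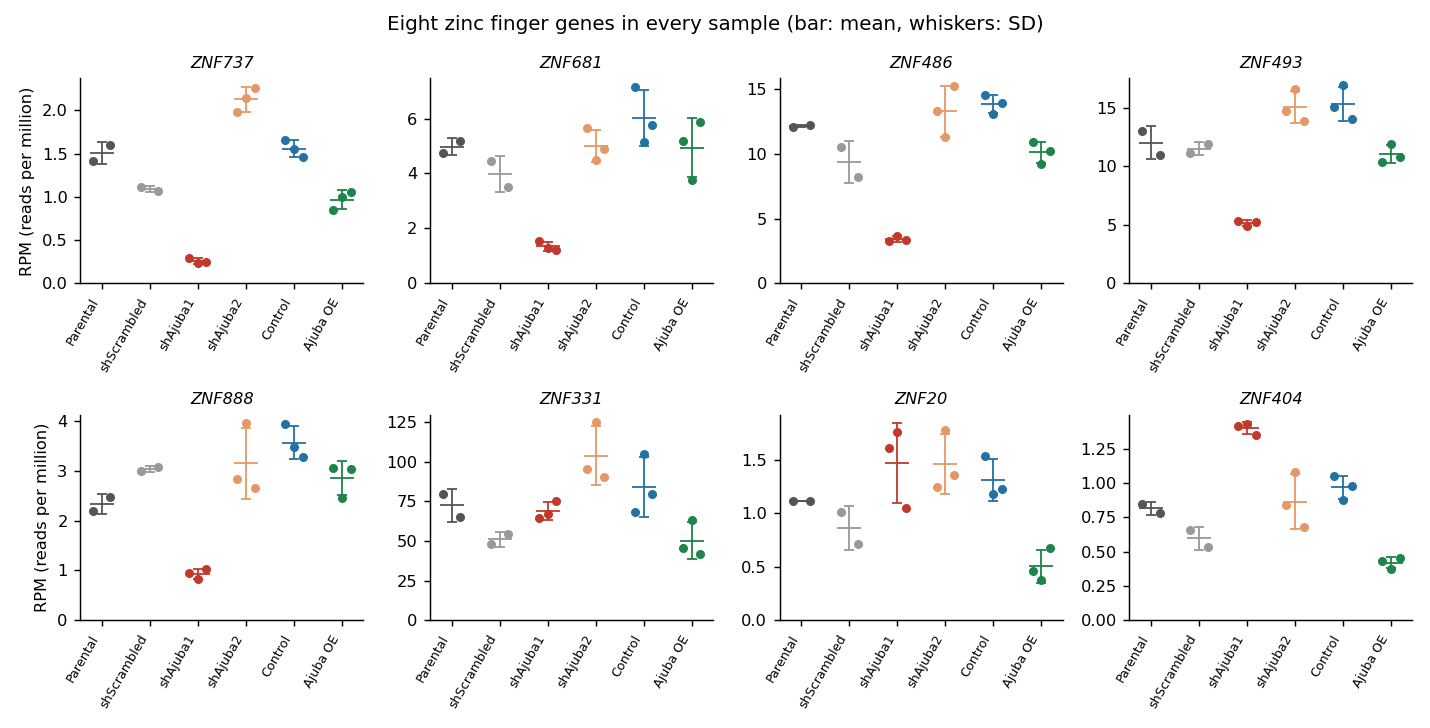
RPM of 8 zinc finger genes in every sample, by line. Points are samples, bars means and whiskers the SD (n = 2 for Parental and shScrambled, otherwise 3). ZNF737, ZNF681, ZNF486, ZNF493 and ZNF888 have their 3 shAjuba1 points below all other samples, ZNF331 is highest in shAjuba2 on average, and ZNF20 and ZNF404 have their 3 Ajuba OE points at the bottom.

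Genes that stood apart in 1 line were few. All 3 shAjuba1 samples were below the 13 other samples for 37 of the 201 genes, where 5.47% of all genes kept were, and 13 of the 37 were in D and 17 in H. Where the line mean also had to be at least 2 times under the lowest other line mean, 5 genes remained, ZNF737 (0.267 of it), ZNF681 (0.338), ZNF486 (0.367), ZNF888 (0.398) and ZNF493 (0.467), against a background of 0.661%. ZNF491 was the only gene set apart in this way in another line, at 0.47 of the lowest other mean in Ajuba OE (background 1.88%).

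The knockdown lines were also compared directly, with the same 3 shAjuba1 samples as above, so D and H were not tested independently here. Between shAjuba1 and shAjuba2, 69 of 201 genes were called, 7 higher and 62 lower in shAjuba1, where 19.6% of all genes tested were called (9.47% higher and 10.1% lower). D had 20 of 23 lower (median log2 fold change -0.92) and H had 22 of 31 lower (median -0.61). C had 8 of 23 lower (median -0.36) and F 5 of 22, and no other cluster had more than 2. Without shAjuba1 replicate 1 the total was 44, with 17 in D and 15 in H. ZNF737 differed by -2.96 (SE 0.224, adjusted p = 5.17e-05), ZNF486 by -1.90 (SE 0.151, adjusted p = 7.09e-05), ZNF681 by -1.83 (SE 0.175, adjusted p = 0.000155) and ZNF493 by -1.50 (SE 0.134, adjusted p = 0.000116) on the log2 scale.

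The non-ZNF surroundings of D and H did not share one direction. Between the first and the last ZNF gene of D no other protein-coding gene passed the filter. Inside H, PPP2R1A, a scaffold subunit of a phosphatase, had a log2 fold change of -0.04 and SPACA6, a sperm protein gene, of -0.09 in shAjuba1 against shScrambled, and neither was called. The unnamed gene ENSG00000269825, whose exons overlap ZNF83, fell by 1.27 (adjusted p = 1.57e-06). Of 20 genes that flank D, 10 on each side, 6 were higher and 2 lower, and of 20 that flank H 3 were higher and 9 lower. These were the next protein-coding genes in order at the same RPM level, whatever their distance. D lies beside the centromere, so its flanking genes on that side need not be close. The lower genes next to H included the calcium channel subunits CACNG6 (-3.04) and CACNG8 (-1.38), which lie beyond ZNF331, the gene that rose.

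Outside D and H the calls of shAjuba1 went both ways. Cluster C had 4 higher and 4 lower, F 4 and 4, G 4 higher and 2 lower, J 4 higher and 2 lower, B 3 higher and 1 lower and E 2 lower, and the 12 genes outside clusters had 5 higher and none lower. Over all genes tested 18.2% were called higher and 20.2% lower, and these small counts are given as a description only. ZNF792 (chr19:34956354-34964229), in E, shares no window with another gene and overlaps none. It had 17.9 and 16.7 RPM in shScrambled, 8.46, 8.93 and 8.58 RPM in shAjuba1, 16.3, 17.4 and 17 RPM in shAjuba2 and 12.1 to 15.9 RPM in the other lines, a log2 fold change of -1.02 against shScrambled (SE 0.102, adjusted p = 7.79e-06). The shAjuba1 samples were the lowest of all. ZNF404 (chr19:43872365-43901385), in G, went up from 0.658 and 0.537 RPM to 1.42, 1.43 and 1.35 RPM, by 1.23 on the log2 scale (SE 0.224, adjusted p = 0.000904).

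Among genes with a known role, ZNF274, which binds the ends of other zinc finger genes and brings the methyltransferase SETDB1 to them, had a log2 fold change of 0.32 in shAjuba1 (adjusted p = 0.0113). It lost that call without either shScrambled replicate (adjusted p = 0.0753 without replicate 1 and 0.105 without replicate 2). ZNF146, a protein made almost only of fingers and the member with the most reads per kilobase (43.6 RPM per kb), rose by 0.34 (adjusted p = 0.00648, or 0.112 without shScrambled replicate 2). ZNF224, a repressor of the aldolase A gene, fell by 0.42 (adjusted p = 0.00438, or 0.0732 without shScrambled replicate 2). In shScrambled against Parental ZNF146 had a log2 fold change of -0.29 (adjusted p = 0.0083) and ZNF224 of 0.44 (adjusted p = 0.00172). For both genes the control line thus differed from Parental in the direction opposite to the change in shAjuba1. ZNF671, ZNF154 and ZNF132, whose promoters are often methylated in tumours, lie in J and had 0.25, 0.17 and 0.12 in shAjuba1 against shScrambled, none of them called. ZNF382 (0.208 RPM) and ZNF568 (0.0754 RPM), other well-studied genes of the chromosome, were under the threshold.

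In shAjuba1 the genes with the most reads per kilobase of the remaining clusters differed from shScrambled by less than 0.5 on the log2 scale. In shAjuba1 against shScrambled ZNF121 of B rose by 0.35 (adjusted p = 0.00424, or 0.0557 without shScrambled replicate 2) and ZNF700 of C fell by 0.37 (adjusted p = 0.01, or 0.0505 and 0.127 without shScrambled replicate 1 or 2). Against Parental, shScrambled had a log2 fold change of 0.31 for ZNF700 (adjusted p = 0.0172), opposite to its change in shAjuba1, and of 0.19 for ZNF121 (adjusted p = 0.0702). ZNF57 of A (0.26), ZNF302 of E (-0.06), ZNF428 of G (-0.03), ZNF580 of I (-0.09) and ZNF587 of J (0.17) were not called in shAjuba1. Genes with the KRAB pattern made up 51 of the 55 lower genes, or 51 of 160 tested, against 4 of 40 without it. Of these 51, 14 were in D and 23 in H, where 20 of 23 and 30 of 31 genes had the pattern. The pattern and the cluster were not separated here. Lower genes and the rest both had a median of 12 fingers, and their median levels were 13.2 and 11.2 RPM. The lower genes shared more of their 50-base windows with other genes, with a median of 5.62% against 1.51% for the rest. In H these medians were 7.26% and 1.75%, and in D 5.54% and 5.23%.

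Reads of near-identical copies and of overlapping genes make single counts less certain, and their part in the results was not tested beyond the counts given here. Of the 201 genes, 51 shared more than 10% of their 50-base windows with another gene, 76 had an exon overlap with a gene on the same strand and 68 with one on the opposite strand, and 77 had none. The counting options on strand and multiple matches are not given in the sources used here. Among genes that shared at most 10%, 15 of D and 16 of H were lower in shAjuba1, and among those without any exon overlap 7 of 10 in D and 8 of 12 in H were.

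**Figure D4:**
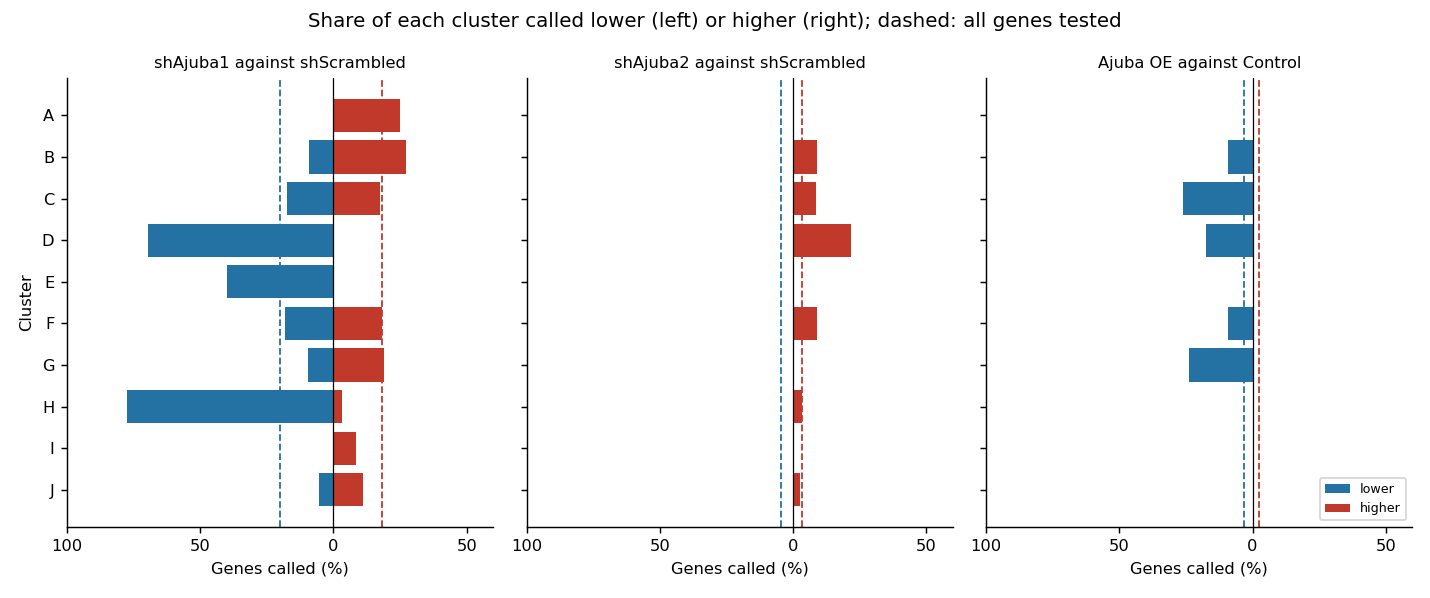
Share of the genes of each cluster (A to J) called lower (bars to the left) or higher (bars to the right), in percent, for the 3 comparisons of the study. Dashed lines give the share of all genes tested in each direction. In shAjuba1 the longest bars are those to the left for D (16 of 23) and H (24 of 31), and in Ajuba OE that for C (6 of 23) is the longest.

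In shAjuba2 the called zinc finger genes were higher than in shScrambled. Of 201 genes 13 were called, all higher (background 7.63%, with 3.19% higher and 4.44% lower), which at 6.47% is near the share of all genes, and the median was 0.17 on the log2 scale against -0.01 over all genes, 0.16 over the other protein-coding genes of chromosome 19 and 0.12 over ZNF genes of other chromosomes. The shift was thus close to that of both other groups. Of the 13, 5 were in D, where all 23 genes had a positive log2 fold change (median 0.43). The count depended on the samples used, with 1 call without shAjuba2 replicate 1, 34 without replicate 2, 8 without replicate 3 and 0 without either shScrambled replicate, with 0, 12, 3 and 0 of them in D. Each gene named below for shAjuba2 lost its call without either shScrambled replicate. All 3 shAjuba2 samples were above the 13 others for 18 of the 201 genes (background 4.59%), 6 of them in C and 5 in D.

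ZNF878 and ZNF442 of cluster C, both with 14 fingers, changed most in shAjuba2. ZNF878 (chr19:12043805-12052961) was at 2.06 and 1.35 RPM in shScrambled and at 3.5, 4.17 and 3.6 RPM in shAjuba2 (log2 fold change 1.11, SE 0.236, adjusted p = 0.0325). ZNF442 (chr19:12345944-12365905) was at 2.8 and 2.78 RPM against 5.35, 6.53 and 5.99 RPM (log2 fold change 1.05, SE 0.177, adjusted p = 0.0156). The 2 Parental samples had 2.87 and 2.82 RPM of ZNF878 and 3.22 and 3.58 RPM of ZNF442, below the shAjuba2 samples as well. ZNF254 of D had 11.6 and 10.9 RPM in shScrambled, 21.8, 19.6 and 21.4 RPM in shAjuba2 and 16.6 and 17.4 RPM in Parental, so that Parental lay between them (log2 fold change 0.85, SE 0.126, adjusted p = 0.00967). ZNF274 had a log2 fold change of 0.70 (adjusted p = 0.0296) and ZNF737 of 0.91 (adjusted p = 0.0374). ZNF93 (0.67, adjusted p = 0.0667) and ZNF91 (0.26, adjusted p = 0.249) did not pass.

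Against Control, the called zinc finger genes were lower in Ajuba OE. Control itself had a positive log2 fold change against Parental for 165 of the 201 genes (median 0.18), as described below. Of 201 genes, 21 were called in Ajuba OE against Control, all lower, which is 10.4% where 5.43% of all genes tested were called (2.39% higher and 3.03% lower). Their median was -0.23 on the log2 scale, against -0.01 over all genes, 0.03 over the other protein-coding genes of chromosome 19 and -0.08 over ZNF genes of other chromosomes, of which 7 of 227 were called. Cluster C had 6 of 23 lower (median -0.47), G 5 of 21 (median -0.38), D 4 of 23 (median -0.35), F 2 of 22 and B 1 of 11, and ZNF546, ZNF780A and ZNF780B, which are neighbours at 40.0 to 40.1 Mb outside the clusters, were lower too. H had no call, although all 31 of its genes had a negative log2 fold change (median -0.24) and 13 had an unadjusted p under 0.05, while DESeq2 called 0. The count fell to 3 without replicate 1 or 3 of either line, to 13 without Ajuba OE replicate 2 and to 9 without Control replicate 2, but was 25 without replicate 2 of both. It was 43 in 1 fit of all 16 samples and 84 with a replicate block. The labels do not say whether equal replicate numbers mark samples handled together. Deviations from the line mean correlated at 0.505 between replicate 2 of both lines, and at 0.0998 and -0.0494 for replicates 1 and 3. All 3 Ajuba OE samples were below the 13 others for 25 of the 201 genes (background 5.45%), 9 of them in G and 6 in C.

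The largest of these differences were in genes with few reads. ZNF20 (ENSG00000132010, chr19:12092843-12140355) was at 1.54, 1.18 and 1.23 RPM in Control and at 0.459, 0.375 and 0.679 RPM in Ajuba OE (log2 fold change -1.34, SE 0.265, adjusted p = 0.0301). It shares 73.3% of its windows with other genes and overlaps the read-through gene ZNF625-ZNF20, so its counts are uncertain. ZNF491 (chr19:11797667-11809622) was at 0.845, 1.12 and 0.82 RPM in Control, 0.359, 0.438 and 0.402 RPM in Ajuba OE and 0.784 to 1.55 RPM in the 4 other lines, with the Ajuba OE samples below all others (log2 fold change -1.17, SE 0.241, adjusted p = 0.0349). ZNF404 was at 1.05, 0.877 and 0.979 RPM against 0.431, 0.375 and 0.453 RPM (log2 fold change -1.14, SE 0.212, adjusted p = 0.0238). For ZNF491 and ZNF404 the call was lost whenever 1 of the 6 samples was left out (adjusted p between 0.0556 and 0.126), and for ZNF20 in each case except without Ajuba OE replicate 3.

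Some genes with more reads were lower as well. ZNF431 of D had 47.9, 47.7 and 46 RPM in Control and 29.5, 27.4 and 29.7 RPM in Ajuba OE (log2 fold change -0.65, SE 0.0862, adjusted p = 0.00547). ZNF699 of B (chr19:9291140-9309838) had 9.84, 8.51 and 9.18 RPM against 4.79, 4.38 and 4.65 RPM (log2 fold change -0.93, SE 0.115, adjusted p = 0.00398), the smallest adjusted p among the 21. Both kept their call whichever sample was left out. ZNF442 fell by 0.91 (adjusted p = 0.0135) from 4.34, 4.57 and 4.39 RPM to 1.99, 2.46 and 2.34 RPM, a call lost without Ajuba OE replicate 3 or Control replicate 1 or 3 (adjusted p between 0.0512 and 0.0811). The Ajuba OE samples were the lowest of all 16 for ZNF699 and ZNF442.

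The knockdown comparisons share no sample with that of Ajuba OE and Control, so the 21 genes could be looked up there. In shAjuba2 all 21 had a positive log2 fold change (median 0.55) and 6 were called higher, or 28.6%. Of all genes lower in Ajuba OE 28.4% were called higher in shAjuba2, 440 of 638 being positive (median 0.32), so the share of calls was the background's. In shAjuba1 9 of the 21 were called higher (42.9%, where 31.2% of all genes lower in Ajuba OE were) and 4 lower, where 225 of 626 of all such genes were lower. The 9 were ZNF699, ZNF844, ZNF20, ZNF540, ZNF546, ZNF404, ZNF45, ZNF221 and ZNF222, and 1 of them, ZNF699, was also called higher in shAjuba2. ZNF699, ZNF546, ZNF404 and ZNF45 kept the call in shAjuba1 whichever sample was left out, and the other 5 did not. In shScrambled against Parental all 9 had a negative log2 fold change, from -0.63 (ZNF844) to -0.20 (ZNF546). ZNF844, ZNF699 and ZNF45 were called lower there (adjusted p = 0.000112, 0.00736 and 0.0349). The part of this lower control level in the 9 calls was not tested. For ZNF699 the shScrambled samples had 5.65 and 5.35 RPM, those of shAjuba1 10.5, 9.92 and 8.23 RPM and those of shAjuba2 9.98, 10.3 and 12 RPM, with Parental at 7.38 and 7.93 RPM between them.

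ZNF45 of G, the most abundant of the 9, had 39.3 and 37 RPM in shScrambled, 57.5, 54 and 53.7 RPM in shAjuba1, 44.5, 42 and 46.7 RPM in shAjuba2, 41.5, 40 and 41.6 RPM in Control and 27.8, 26.8 and 29 RPM in Ajuba OE. Its log2 fold changes were 0.52 in shAjuba1 (adjusted p = 0.000582), 0.17 in shAjuba2 (adjusted p = 0.386) and -0.50 in Ajuba OE (adjusted p = 0.0198). ZNF546 had 0.81 (adjusted p = 0.000448), 0.55 (adjusted p = 0.0751) and -0.73 (adjusted p = 0.0174). Both genes were highest in shAjuba1 and lowest in Ajuba OE by line mean. Their calls in Ajuba OE were lost without replicate 1 or 3 of Ajuba OE or replicate 3 of Control, among others (adjusted p between 0.0514 and 0.126).

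The control lines differed from Parental to unequal degrees. In shScrambled 30 of 201 genes were called, 11 higher and 19 lower, or 14.9%, where 30.7% of all genes were (15% higher and 15.6% lower). That share lay below the background, and D (3 lower of 23, median -0.12) and H (5 lower and 1 higher of 31, median -0.02) did not stand out. Without shScrambled replicate 2 there were 6 calls and without Parental replicate 2 there were 18. ZNF556 of A had 28 and 30 counts in Parental and 9 and 8 in shScrambled (log2 fold change -1.65, SE 0.399, adjusted p = 0.00289, or 0.106 without shScrambled replicate 2), and it had 1.25, 0.979 and 0.88 RPM in Ajuba OE. Its mean reached the threshold of 0.5 RPM with the help of this last line, so that high value is partly set by the choice of genes. In shAjuba1 it had 6, 0 and 9 counts and was not tested. ZNF132 had 1.4 and 1.25 RPM in Parental and 2.55 and 2.4 RPM in shScrambled (log2 fold change 0.90, SE 0.207, adjusted p = 0.0019), with 2.64, 3.19 and 2.35 RPM in shAjuba1 but 1.72, 1.46 and 1.01 RPM in shAjuba2, so shScrambled and shAjuba1 were the high lines.

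In Control none of the 201 genes was called against Parental by edgeR, where 0.37% of all genes were (0.0508% higher and 0.319% lower). DESeq2 also called 0, and 42 genes had an unadjusted p under 0.05. Of the 201, 165 had a positive log2 fold change (median 0.18, against 0.04 over all genes and 0.09 over ZNF genes of other chromosomes, 156 of 227 of which were positive), and D had the highest median of the larger clusters (0.28, 22 of 23 positive). Without Control replicate 2 there were 6 calls. Control therefore lay above Parental and Ajuba OE near it in the plot of cluster levels for D, where Ajuba OE had a mean of -0.02 ± 0.0887 (SD, n = 3), Control 0.33 ± 0.124 (SD, n = 3) and Parental 0.08 ± 0.00513 (SD, n = 2). For H the means were -0.02, 0.21 and 0.06 in the same order. In C (-0.35, 0.16 and 0.02) and G (-0.24, 0.12 and -0.01) Ajuba OE lay below Parental as well.

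Genes of the machinery that acts with KRAB zinc finger proteins were called in both directions in shAjuba1. Of 35 genes for TRIM28, its partners, and enzymes of histone and DNA methylation, 9 were higher and 8 lower in shAjuba1 against shScrambled, and none was called in shAjuba2 or in Ajuba OE, where 6 and 3 had an unadjusted p under 0.05 and DESeq2 called 1 each. Over all protein-coding genes 45.4% were called in shAjuba1, and over all genes 7.63% in shAjuba2 and 5.43% in Ajuba OE. Whether the comparisons differed for these 35 genes was not tested. TRIM28 itself had 317 and 326 RPM in shScrambled, 402, 367 and 473 RPM in shAjuba1 and 401 and 401 RPM in Parental (log2 fold change 0.35 against shScrambled, adjusted p = 0.0159, or 0.102 and 0.084 without shScrambled replicate 1 or 2). CBX1, a heterochromatin protein, had 152 and 140 RPM in shScrambled against 230, 241 and 258 RPM in shAjuba1 (log2 fold change 0.72, adjusted p = 2.83e-05). Parental had 257 and 258 RPM of CBX1, so that shScrambled was the line set off from both others.

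MPHOSPH8, a subunit of the HUSH complex, which spreads repressive histone methylation, was lowest in shAjuba1. It was at 114 and 106 RPM in Parental, 118 and 119 RPM in shScrambled, 74.9, 81.9 and 79 RPM in shAjuba1, 119, 115 and 113 RPM in shAjuba2, 129, 132 and 126 RPM in Control and 145, 134 and 125 RPM in Ajuba OE. All 3 shAjuba1 samples were below the 13 others, with a log2 fold change of -0.61 against shScrambled (SE 0.0792, adjusted p = 6.62e-05) and of -0.51 against shAjuba2 (adjusted p = 0.0072, or 0.0713 without shAjuba1 replicate 1). The demethylase gene KDM4C (-0.52, adjusted p = 0.00173) and ATF7IP2, a relative of the partner of SETDB1 (-0.51, adjusted p = 0.00302, or 0.0564 without shScrambled replicate 2), were lower as well. Against shAjuba2 they gave an adjusted p of 0.0237 and 0.0123, both lost without shAjuba1 replicate 1 (0.0892 and 0.0715). The other genes of the HUSH complex were not called, with log2 fold changes against shScrambled of 0.08 for TASOR (adjusted p = 0.482) and -0.20 for PPHLN1 (adjusted p = 0.0864), and its effector MORC2 was higher (0.42, adjusted p = 0.00144). The part of these genes in the levels of the zinc finger genes was not tested. Against Parental, shScrambled had 1 of the 35 genes higher and 13 lower, where 14.9% and 21.7% of all protein-coding genes of at least 0.5 RPM were. Between shAjuba1 and shAjuba2 2 were higher and 6 lower, where 10.5% and 11.2% of those protein-coding genes were.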

How the data were processed

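RNA of the 6 lines was sequenced as stranded mRNA in paired reads of 50 bases. HISAT2 was the aligner and hg38 the genome, and featureCounts of Rsubread assigned pairs to exons. The values deposited by the authors are raw counts per Ensembl gene, without normalization. The strand setting, the annotation release and the versions of the aligner and the counter are not given in the sources used here. Samples were grouped by line from their labels. Of 66023 genes counted, 56434 were found in GENCODE 44 by identifier, which gave symbols, positions and exons.

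Genes were kept with filterByExpr, normalized with TMM and compared between lines with edgeR 4.0.16 (R 4.3.3, limma 3.58.1) by its two-sided quasi-likelihood test on the samples of the lines compared. P-values were adjusted over all genes tested with Benjamini-Hochberg, and genes were called at an adjusted p under 0.05. The SE given with a log2 fold change is its absolute value divided by the square root of the test's F statistic. For log2 CPM a prior count of 2 was added. The test was checked on simulated data. Tables and plots were made in Python 3.11.15 (numpy 2.4.6, pandas 2.3.3, matplotlib 3.10.9). The 201 genes, the cluster rule and the gene lists were chosen with earlier results of these data known. Named genes were, in each comparison, the 4 with the smallest adjusted p among non-overlapping calls of at least 1 in size on the log2 scale, the 10 with the widest range of line means, the most abundant per kb of exon in each cluster, those next to the RPM threshold, a list with well-known roles, genes set apart in 1 line and the machinery genes called with a size of at least 0.5 on that scale. Other genes are named within counts or for calls in more than 1 comparison, and ZNF699, ZNF431, ZNF253, ZNF254, ZNF45 and ZNF546 were chosen for description after their values were seen.

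Totals of 30132396 to 69684675 read pairs make counting error small for most of the genes, and the smallest sum over the 16 samples was 358. Alternatives were DESeq2 1.42.0, its size factors, library size alone, no filter, 1 fit of all samples, a replicate block, each replicate left out, other thresholds and only genes without exon overlap. Genes sharing at most 10% of windows were added as an alternative after seeing the data.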

Additional observations from a re-analysis of the deposited data

Results flagged for a closer look

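In cluster D 4 genes moved in opposite directions in the knockdown lines. Each was called lower in shAjuba1 and higher in shAjuba2 against the same shScrambled samples. Their difference is given from the edgeR comparison of shAjuba1 and shAjuba2. The genes were chosen by calls that use the same shAjuba1 and shAjuba2 samples. That choice favoured a difference, so its p-values are no independent support. ZNF737 had log2 fold changes of -2.07 and 0.91, and the lines differed by -2.96 (SE 0.224, adjusted p = 5.17e-05). ZNF253 had -0.54 and 0.63, and the lines differed by -1.15 (SE 0.129, adjusted p = 0.000365). Its RPM was 8.61 and 8.37 in shScrambled, 6.01, 6.37 and 5.35 in shAjuba1 and 14.2, 13.2 and 13.4 in shAjuba2. ZNF431 had -0.37 and 0.60, with a difference of -0.96 (SE 0.113, adjusted p = 0.000487). ZNF714 had -0.38 and 0.54, with a difference of -0.91 (SE 0.125, adjusted p = 0.0011). The direct difference uses no shScrambled sample, but the genes were chosen by calls that do. The higher call in shAjuba2 was lost for all 4 genes without either shScrambled replicate, which leaves 1 shScrambled sample (log2 fold changes between 0.45 and 0.94). The lower call in shAjuba1 was lost without shScrambled replicate 1 for ZNF253 (adjusted p = 0.0527), ZNF431 (0.112) and ZNF714 (0.246) and without replicate 2 for ZNF431 (0.0575). No cause was tested.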

How the results depend on the processing

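Counts of called genes kept their direction under most alternatives and varied in size. When 1 replicate was left out, calls ranged from 41 to 93 for shAjuba1, 0 to 34 for shAjuba2, 3 to 13 for Ajuba OE, 6 to 24 for shScrambled against Parental, 0 to 6 for Control against Parental, 44 to 79 between the knockdown lines and 105 to 126 for all lines. Lower genes ranged from 9 to 16 in D and 11 to 24 in H for shAjuba1, 17 to 21 in D and 15 to 24 in H between the knockdown lines, and 0 to 4 in C, 0 to 2 in G and 1 to 2 in D for Ajuba OE, and higher genes in D for shAjuba2 from 0 to 12. With a size of at least 1 on the log2 scale, calls were 9 for shAjuba1 (4 in D, 3 in H), 2 for shAjuba2 (0 in D), 3 for Ajuba OE (2 in C, 1 in G, 0 in D), 1 for shScrambled and 13 between the knockdown lines (9 in D, 3 in H), and 23 genes had a range of line means of at least 1. Among the 77 genes without exon overlap, by construction fewer, calls were 34 for shAjuba1 (7 in D, 8 in H), 3 for shAjuba2 (0 in D), 6 for Ajuba OE (3 in C, 2 in G, 0 in D), 12 for shScrambled, 30 between the knockdown lines (9 in D, 8 in H) and 50 for all lines. In 1 fit of all 16 samples they were 34 for shAjuba2 (11 in D), 43 for Ajuba OE (11 in C, 8 in G, 8 in D) and 8 for shScrambled. Without the filter they were 21 for shAjuba2 (8 in D) and 5 for Control, and for Ajuba OE 3 in G and 2 in D. DESeq2 called 19 for shScrambled, and library size alone gave 8 in D for shAjuba2. Set apart in 1 line were 18 genes at 1.5 times and 0 at 4 times. The cause of these changes was not tested. With a replicate block, calls were 32 for shAjuba2 (10 in D) and 84 for Ajuba OE (14 each in C, G and D). The labels do not say whether equal replicate numbers mark samples handled together. The correlation of same-numbered deviations was 0.0998, 0.505 and -0.0494 for replicates 1, 2 and 3 of Ajuba OE and Control. It was 0.0527 and -0.0629 for shAjuba1 and 0.0691 and 0.188 for shAjuba2 with shScrambled. Replicate 2 of Ajuba OE and of Control also had more mitochondrial messenger RNA than their other replicates. Whether these samples shared their handling was not tested. Joining genes at 250 or 1000 kb changed no count of D or H beyond 1.5 times. Of 1158 alternatives for 102 results of named genes 230 lost the call and 0 reversed. Leaving out shScrambled replicate 2 lost 15 of 36 calls of shAjuba1 and 11 of 17 of shScrambled against Parental, and leaving out either shScrambled replicate lost 10 of 10 of shAjuba2. Genes with few reads and close copies limit the precision most.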
